A study of Mus musculus with 14 samples.

Results

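The region described is the contact between a block of mouse chromosome 16 that holds Cd96 and Nectin3 and the sequence to its right, which runs across a gene desert to Dppa2, Dppa4 and Morc1. The block is chr16:45970001-46650000 (mm10, 68 bins of 10 kb), and the second side is chr16:46660001-48670000 (201 bins). All bin pairs with one bin in each and at least 100 kb apart were taken, which gave 13632 of the 138075 bin pairs of the interval at that distance or more (9.87%). The bin pairs were selected on contact values of these same matrices, so every level and ratio below is a description and none is tested.

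The series examined elements in cis that control DNA replication around Dppa2 and Dppa4 in mouse embryonic stem cells (mESC). The data used here were 2 contact matrices: one from mESC after 2 days of auxin and one from untreated mESC, each pooled by the authors over replicates. These names come from the deposited data alone, since the labels name neither an auxin treatment, nor a protein tagged for degradation, nor an untreated sample. Auxin is a plant hormone that is used in engineered cells to trigger the breakdown of a tagged protein. The labelled samples are 14 Capture Hi-C libraries in 10 groups, all of a Cas/129 hybrid grown in 2i plus LIF or differentiated from it: mESC, NPC (neural precursor cells), and mESC lines named 100k.del, 145k.del, 18k.del, 680kinv, abc.del, ab.del, bc.del and c.del. The sources tie neither matrix used here to one of these libraries, and the deletion, inversion and NPC samples were not analysed here. The sources do not give whether capture was used for these matrices.

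Hi-C ligates neighbouring DNA ends in fixed nuclei, and the number of read pairs that link a pair of bins measures how often they meet. Contact falls with distance along the chromosome, so a value is read against the mean at its distance. Mammalian chromosomes are folded into domains whose sequences meet one another more often than those across a boundary, and beyond that scale active regions tend to meet active ones and silent regions silent ones. Cd96 encodes a receptor of T cells and natural killer cells, and Nectin3 a cell adhesion molecule of the nectin family. Dppa2 and Dppa4 are adjacent genes for SAP-domain proteins, which bind DNA in pluripotent cells. Morc1 encodes a nuclear ATPase of the male germ line that takes part in silencing transposons.

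Promoter sequences of RefSeq (GRCm38.p6, with coordinates as in mm10) were available for 5 genes of the block and 3 of the second side. Those of Cd96 and Nectin3 and the 3 of the second side are shown because their bins anchor contacts described below. Capitals mark GATC, the site of MboI, the enzyme that the labels' protocols name for the labelled libraries. The site reads the same on both strands, and 48.0% of the 32851 promoters in the RefSeq table hold at least 1. In such a library read pairs form at these sites only.
Cd96 (chr16:46120199-46120498, minus strand): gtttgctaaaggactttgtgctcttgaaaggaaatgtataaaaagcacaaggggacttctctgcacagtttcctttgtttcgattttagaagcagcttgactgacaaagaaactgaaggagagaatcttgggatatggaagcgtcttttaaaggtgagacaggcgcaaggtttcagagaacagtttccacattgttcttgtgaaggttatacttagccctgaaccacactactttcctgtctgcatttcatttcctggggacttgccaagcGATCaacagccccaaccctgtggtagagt
Nectin3 (chr16:46496918-46497217, minus strand): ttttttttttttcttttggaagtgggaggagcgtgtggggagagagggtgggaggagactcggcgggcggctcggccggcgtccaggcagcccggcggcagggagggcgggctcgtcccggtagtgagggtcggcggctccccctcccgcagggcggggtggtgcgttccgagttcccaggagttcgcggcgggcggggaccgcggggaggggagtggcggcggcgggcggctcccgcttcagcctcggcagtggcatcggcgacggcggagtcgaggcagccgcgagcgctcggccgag
Gm52257 (chr16:48057389-48057688, plus strand): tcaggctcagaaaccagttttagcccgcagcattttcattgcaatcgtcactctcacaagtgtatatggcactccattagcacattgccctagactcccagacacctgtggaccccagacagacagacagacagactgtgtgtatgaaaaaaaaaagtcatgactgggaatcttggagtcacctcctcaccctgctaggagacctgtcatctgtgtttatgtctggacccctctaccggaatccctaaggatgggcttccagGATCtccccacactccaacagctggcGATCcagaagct
6430553K19Rik (chr16:48158450-48158749, minus strand): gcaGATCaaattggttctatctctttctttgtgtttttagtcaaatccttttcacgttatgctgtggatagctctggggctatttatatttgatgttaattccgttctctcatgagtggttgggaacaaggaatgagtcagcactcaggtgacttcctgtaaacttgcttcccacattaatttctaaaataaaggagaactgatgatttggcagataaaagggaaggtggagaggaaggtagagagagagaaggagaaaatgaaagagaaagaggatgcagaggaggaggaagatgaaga
Gm5485 (chr16:48412367-48412666, minus strand): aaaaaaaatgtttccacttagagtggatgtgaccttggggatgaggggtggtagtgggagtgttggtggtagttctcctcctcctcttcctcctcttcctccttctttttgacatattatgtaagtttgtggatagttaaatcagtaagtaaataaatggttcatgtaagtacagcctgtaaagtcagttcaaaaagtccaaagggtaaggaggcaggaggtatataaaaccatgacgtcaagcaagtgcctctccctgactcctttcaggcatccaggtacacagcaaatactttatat
The Nectin3 promoter holds 0 GATC sites, 73.7% G and C and 40 CpG dinucleotides. The Cd96 promoter holds 1 site, 43.7% G and C and 4 CpG dinucleotides. The promoters of Gm52257, 6430553K19Rik and Gm5485 hold 2, 1 and 0 sites.

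Each deposited value was divided into whole read pairs and the balancing factors of its bins. The auxin matrix held 402633 read pairs between different bins and the untreated matrix 407374, with a median of 1482 pairs per bin in auxin and 1491 in untreated. The described bin pairs held 27840 read pairs in auxin and 34083 in untreated. Of these bin pairs 35.7% were empty in auxin and 31.1% in untreated, so sums over areas are given. The same 18 bins held under 100 pairs in both matrices, 2 in the block and 8 on the second side, and the balancing gives a single read pair in them a large weight. Values without these sparse bins are given beside some results below. With 1 pooled matrix per condition there is no replicate, and all comparisons are of these libraries. Intervals in brackets are 95% intervals for counting error only, and read pairs copied from 1 molecule are not independent.

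The level below is the summed contact over the sum expected from the mean at each distance in the same matrix, so 1 is the mean. Across the whole second side the block stood at 1.03 (1.01 to 1.05) in the auxin matrix and at 1.30 (1.27 to 1.33) in the untreated matrix. Contact of the block was therefore near the mean for its distance with auxin and well above it in untreated cells. The log2 ratio of auxin over untreated was -0.34 (-0.38 to -0.29). It was -0.22 (-0.26 to -0.17) when the mean at each distance was taken only from bin pairs left of the deepest boundary of the untreated matrix, in the bin starting at 49020001.

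With the mean as first defined, the untreated level climbed with distance along the second side. The auxin level stayed close to 1 as far as the end of the desert. With the mean taken left of the deepest boundary, the untreated level was 1.48 at 48.16 to 48.26 Mb. It was then 0.920 at 48.46 to 48.56 Mb and 1.13 at 48.56 to 48.67 Mb. In 20 windows of 100 kb the auxin level lay between 0.899 and 1.33 with a median of 1.04. The untreated level lay between 1.05 and 1.95 with a median of 1.37. Over 730 windows at the same gaps from 46 blocks of equal length stepped along the interval, this one included, the median was 1.02 in auxin and 1.01 in untreated. The matrices lay closest at the block's edge: the first window, 46.66 to 46.76 Mb, was at 1.00 (0.971 to 1.04) in auxin and 1.05 (1.01 to 1.08) in untreated.

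Contact was above expectation in 14 of 20 windows in auxin, against 53.7% of the 730 windows, and in 20 of 20 in untreated, against 51.4%. The interval lay above 1 in 5 windows in auxin (30.0% of the 730) and in 20 in untreated (44.1%). The overlapping blocks of this background are not independent, and nothing is read from it because the bin pairs were chosen on these contacts. Over the alternative settings the number of windows above expectation in auxin ran from 10, after the matrices were balanced again or with the mean taken left of the deepest boundary, to 18, with only the Cd96 part of the block.

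The 3 windows of highest contact in the auxin matrix all lay at the far end. The window at 48.56 to 48.67 Mb, in the Morc1 domain, was at 1.33 (1.2 to 1.48) in auxin. The window at 48.36 to 48.46 Mb, which spans the start of Morc1, was at 1.31 (1.08 to 1.59), and the one at 48.46 to 48.56 Mb at 1.2 (0.998 to 1.43). Without sparse bins these were at 1.29, 1.19 and 1.10, and the window at 48.26 to 48.36 Mb, with 1.18, then took the place of the last. In the untreated matrix the 3 highest lay around Dppa2 and Dppa4, at 48.16 to 48.26 Mb with 1.95 (1.63 to 2.33), 48.36 to 48.46 Mb with 1.94 (1.57 to 2.40) and 48.26 to 48.36 Mb with 1.84 (1.71 to 1.98). The last of these holds Dppa2 and Dppa4, and stood at 1.18 (1.09 to 1.28) in auxin.

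**Figure D1:**
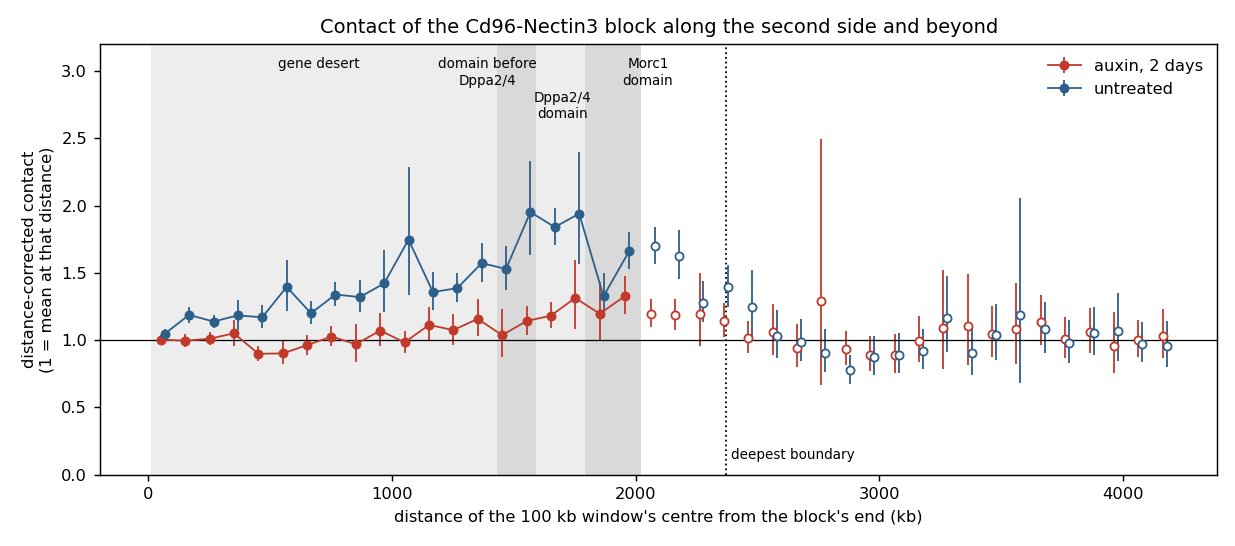
Distance-corrected contact of the Cd96-Nectin3 block (vertical axis, 1 is the mean at that distance) by distance of each 100 kb window from the block's end (horizontal axis, kb), in the auxin matrix (red) and the untreated matrix (blue). Filled points are the 20 windows of the second side and open points windows beyond it; bars are 95% counting intervals. The untreated points reach 1.95 near Dppa2 and Dppa4, where the auxin points lie between 1.14 and 1.31, and both return to about 1 past the deepest boundary.

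The second side was divided at boundaries of the untreated matrix into 4 zones. The gene desert, chr16:46660001-48080000, holds 5 pseudogenes and, at its far end, the protein-coding gene Gm52257, and protein-coding genes cover 0.309% of it. The block held 23163 read pairs with it in auxin and 28086 in untreated. Its level was 1.00 (0.981 to 1.02) in auxin and 1.25 (1.21 to 1.28) in untreated, a log2 ratio of -0.31 (-0.36 to -0.27). Of its 137 bins that are not sparse, 121 were lower in the auxin matrix, against 46.1% of 7097 bins set against the stepped blocks in the same way. Its bins above 1 numbered 69 in auxin (48.3% of the 7097) and 132 in untreated (50.2%). The range over single bins was 0.368 to 1.75 in auxin and 0.756 to 2.07 in untreated, so the ranges overlapped widely.

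The domain before Dppa2 and Dppa4, chr16:48080001-48240000, holds the long noncoding RNA gene 6430553K19Rik and no protein-coding gene. It held 1165 read pairs with the block in auxin and 1555 in untreated. Its level was 1.08 (0.966 to 1.22) in auxin and 1.67 (1.46 to 1.92) in untreated, with a log2 ratio of -0.63 (-0.88 to -0.37). Of its 15 bins that are not sparse, 13 were lower in auxin, against the same 46.1% of 7097 bins. With the mean taken left of the deepest boundary the ratio was -0.34 (-0.59 to -0.08).

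The domain of Dppa2 and Dppa4, chr16:48240001-48440000, also holds the noncoding gene Gm5485 and the start of the Morc1 body. It held 1731 read pairs with the block in auxin (1650 to 1815, exact Poisson) and 2411 in untreated (2316 to 2509). Its level was 1.23 (1.11 to 1.37) in auxin and 1.90 (1.70 to 2.12) in untreated, the highest of the 4 zones in the untreated matrix. The log2 ratio was -0.62 (-0.84 to -0.40), and all 19 bins that are not sparse were lower in auxin, against the same 46.1% of 7097 bins. Over these bins the level ran from 0.946 to 1.45 in auxin and from 1.40 to 2.43 in untreated, with a narrow overlap. With the mean taken left of the deepest boundary the levels were 1.13 in auxin and 1.38 in untreated, and the ratio -0.29 (-0.50 to -0.07).

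The Morc1 domain, chr16:48440001-48670000, is covered to 83.0% by the whole body of a protein-coding gene, Morc1. It held 1781 read pairs with the block in auxin and 2031 in untreated, and its level was 1.28 (1.16 to 1.40) in auxin and 1.53 (1.43 to 1.63) in untreated. The log2 ratio was -0.26 (-0.42 to -0.09), and 20 of 22 bins that are not sparse were lower in auxin, against the same 46.1% of 7097 bins. This ratio depended on the mean at each distance: it was 0.10 (-0.07 to 0.26) with the mean taken left of the deepest boundary, and -0.07 (-0.24 to 0.09) with no distance correction. The direction for Morc1 is therefore not settled by these matrices, whereas it was the same for the other 3 zones in every setting run.

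In untreated the Dppa2 and Dppa4 domain was the highest zone, while in auxin it could not be told from the Morc1 domain. The Dppa2 and Dppa4 domain exceeded the desert by 0.30 (0.15 to 0.46) on the log2 scale in auxin and by 0.61 (0.45 to 0.77) in untreated, a difference of -0.31 (-0.53 to -0.08). Against the Morc1 domain it stood at -0.05 (-0.25 to 0.15) in auxin and at 0.32 (0.13 to 0.50) in untreated, a difference of -0.37 (-0.64 to -0.09). The Morc1 domain exceeded the desert by 0.35 (0.21 to 0.49) in auxin and 0.29 (0.19 to 0.40) in untreated, a difference of 0.06 (-0.11 to 0.23). Relative to Morc1, the Dppa2 and Dppa4 domain was also lower with auxin under the alternatives, by -0.28 (-0.45 to -0.11) without sparse bins, -0.38 (-0.66 to -0.11) with the mean taken left of the deepest boundary and -0.40 (-0.68 to -0.13) with no distance correction. Relative to the desert this was not so in each setting. The difference was -0.36 (-0.48 to -0.25) without sparse bins. It was -0.06 (-0.29 to 0.16) with the mean taken left of the deepest boundary and -0.21 (-0.43 to 0.02) with no distance correction. The Morc1 domain relative to the desert also moved with the setting. It was higher with auxin by 0.32 (0.15 to 0.49) with the mean taken left of the deepest boundary and by 0.20 (0.02 to 0.37) with no distance correction. Without sparse bins it stood at -0.09 (-0.21 to 0.04). The excess of Morc1 over the desert in untreated rested on the mean as first defined. With the mean taken left of the deepest boundary, Morc1 over the desert was -0.11 (-0.21 to -0.004) in untreated. In auxin it was then 0.21 (0.08 to 0.35).

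**Figure D2:**
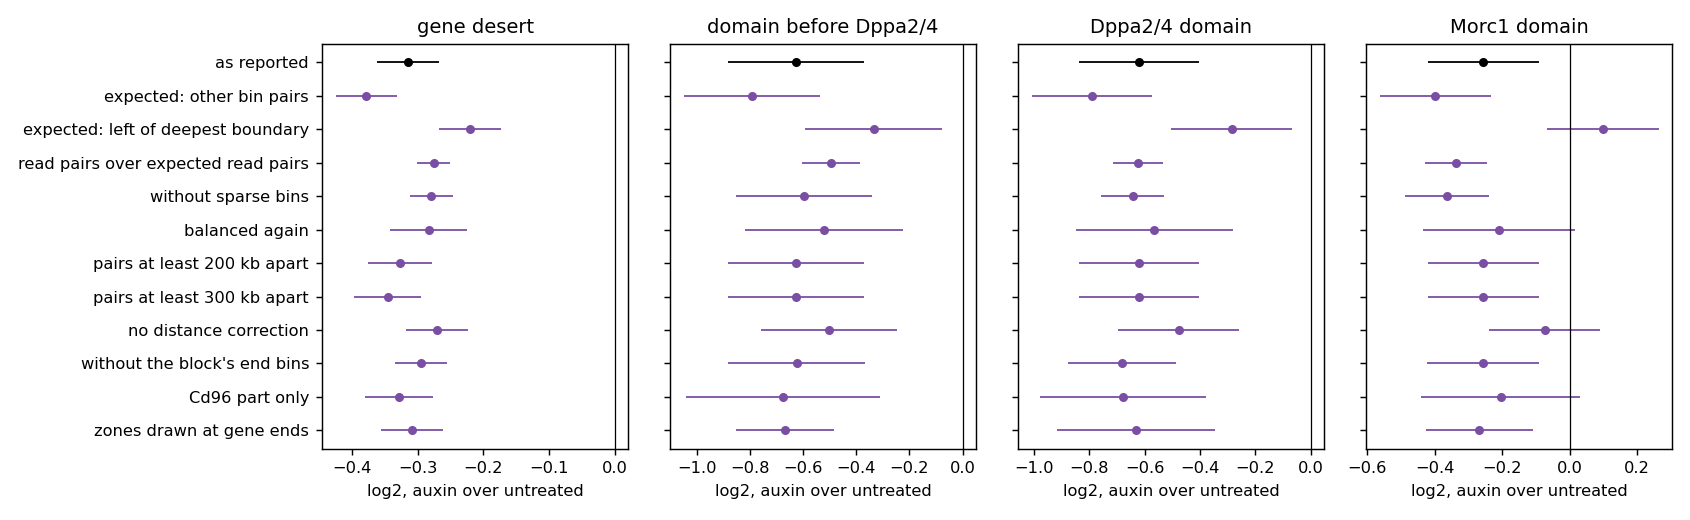
Log2 ratio of auxin over untreated contact between the block and each zone (horizontal axis) as reported (black) and under each alternative setting (purple); bars are 95% counting intervals. The desert, the domain before Dppa2/4 and the Dppa2/4 domain stay below 0 in each setting shown, while the Morc1 domain reaches 0.10 with the expected contact taken left of the deepest boundary.

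By window, 15 of 20 were lower in auxin by more than 1.2-fold, where the background held 18.2% of 730, and 0 were higher by that fold, where the background held 28.5%. The counting interval lay below 0 in 17 windows (29.3% of the background) and above 0 in 0 (37.9%). No test is possible with 1 matrix per condition, so there is no p-value beside these counts. The median log2 ratio was -0.38 over the 20 windows and 0.06 over the 730. With the mean taken left of the deepest boundary, 7 windows passed the same fold downward, where the background held 7.12%. With the mean as first defined 4 passed 1.5-fold, where the background held 3.15%.

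The smallest ratio, -0.83 (-1.24 to -0.42), was that of the window at 47.66 to 47.76 Mb in the desert, with levels of 0.983 in auxin and 1.75 in untreated. Without the sparse bins these were 0.987 in auxin and 1.36 in untreated, and the ratio -0.47 (-0.63 to -0.30). The next were the windows at 48.16 to 48.26 Mb with -0.77 (-1.06 to -0.48) and 48.26 to 48.36 Mb with -0.64 (-0.80 to -0.48), which were -0.75 and -0.64 without sparse bins. The 3 ratios nearest to 0 were -0.06 (-0.13 to 0.01) in the first window, -0.15 (-0.47 to 0.17) at 48.46 to 48.56 Mb and -0.17 (-0.26 to -0.08) at 46.86 to 46.96 Mb. The one at 48.46 to 48.56 Mb became -0.35 (-0.56 to -0.14) without its sparse bin.

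**Figure D3:**
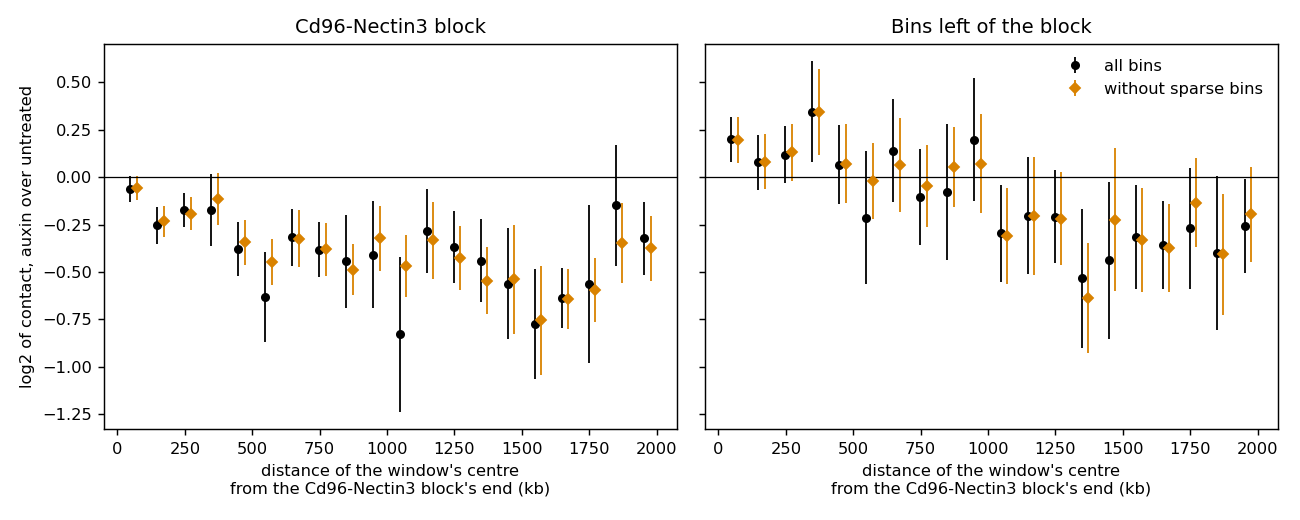
Log2 ratio of auxin over untreated contact (vertical axis) by distance of the 100 kb window from the block's end (horizontal axis, kb), for the Cd96-Nectin3 block (left) and for the bins to its left (right); black circles use all bins, orange diamonds leave out sparse bins, and bars are 95% counting intervals. All 20 points of the block lie below 0, while those of the bins to its left lie on both sides of 0 over the near desert and below it near Dppa2, Dppa4 and Morc1.

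Grouped by distance, the ratio was nearest to 0 at short range. For bin pairs 100 to 250 kb apart the level was 0.873 (0.828 to 0.919) in auxin and 0.913 (0.846 to 0.986) in untreated. At 500 to 1000 kb it was 1.03 (0.996 to 1.07) in auxin and 1.25 (1.2 to 1.29) in untreated. At 1000 to 1500 kb it was 1.00 (0.962 to 1.05) in auxin and 1.45 (1.36 to 1.55) in untreated, and at 2000 kb or more it was 1.22 (1.14 to 1.32) in auxin and 1.75 (1.58 to 1.95) in untreated. The log2 ratio was -0.07 (-0.20 to 0.07) at 100 to 250 kb and -0.52 (-0.70 to -0.33) at 2000 kb or more, and with the mean taken left of the deepest boundary it was -0.04 (-0.18 to 0.09) and -0.14 (-0.33 to 0.04) in these bands. With that mean the untreated level was 1.25 at 1000 to 1500 kb, 1.26 at 1500 to 2000 kb and 1.21 from 2000 kb on. Its climb beyond the band of 1000 to 1500 kb thus rested on the mean as first defined. Position and distance move together along the second side, and their parts cannot be told apart from a single block.

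The right edge of the second side did not mark a step in contact. The last window inside it was at 1.33 in auxin and 1.66 (1.53 to 1.80) in untreated. The first window outside, 48.67 to 48.77 Mb, was at 1.2 (1.09 to 1.31) in auxin and 1.70 (1.57 to 1.84) in untreated, and its log2 ratio was -0.50 (-0.68 to -0.33). From there to the deepest boundary the block stood at 1.18 (1.10 to 1.27) in auxin and 1.53 (1.45 to 1.61) in untreated, a ratio of -0.37 (-0.51 to -0.24). Beyond that boundary the levels were 1.04 (0.968 to 1.11) in auxin and 1.01 (0.961 to 1.07) in untreated, with a ratio of 0.03 (-0.09 to 0.15). These ratios depended on the expected contact: up to the deepest boundary the ratio was -0.02 (-0.16 to 0.11) with the mean taken left of it and -0.14 (-0.27 to -0.01) with no distance correction, and beyond it 0.33 (0.13 to 0.52) with that mean. The last value covers fewer bin pairs, since that mean exists only for distances found left of the boundary. Whether the lower contact with auxin continued past the second side is therefore not settled by these matrices.

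Shares of read pairs, which need no expected contact, gave a like picture for Dppa2 and Dppa4. Of the block's read pairs to its right at 100 kb or more, 34639 in auxin and 40642 in untreated, the domain of these genes took 5.0% (4.77 to 5.23) in auxin and 5.93% (5.70 to 6.17) in untreated, with exact binomial intervals. The desert took 66.9% (66.4 to 67.4) in auxin and 69.1% (68.7 to 69.6) in untreated. The Morc1 domain took 5.14% (4.91 to 5.38) in auxin and 5.0% (4.79 to 5.21) in untreated. The stretch from the second side to the deepest boundary took 5.99% (5.74 to 6.25) in auxin and 5.99% (5.76 to 6.22) in untreated, an equal share. The bins beyond the deepest boundary took 13.6% (13.3 to 14.0) in auxin and 10.2% (9.86 to 10.4) in untreated.

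The block itself is split by an untreated boundary in the bin starting at 46430001, inside the Nectin3 body. The part to the left, 45.97 to 46.44 Mb, holds Cd96, Gm4737, most of Plcxd2 and the 3′ end of Nectin3, and the part to the right, 46.44 to 46.65 Mb, holds the Nectin3 promoter. Against the desert the Nectin3 part was at 0.855 (0.827 to 0.883) in auxin and 1.05 (0.995 to 1.11) in untreated, so it lay below the mean in auxin and at about the mean in untreated. Its log2 ratio of auxin over untreated was -0.30 (-0.39 to -0.21), or -0.20 (-0.26 to -0.15) without sparse bins. The Cd96 part was higher there, at 1.11 (1.08 to 1.13) in auxin and 1.39 (1.35 to 1.42) in untreated.

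Against Dppa2 and Dppa4 the Nectin3 part was the higher one. The Nectin3 part was at 1.43 (1.17 to 1.73) in auxin and 2.06 (1.89 to 2.25) in untreated, a ratio of -0.53 (-0.84 to -0.23). The Cd96 part was at 1.13 (1.01 to 1.26) in auxin and 1.80 (1.51 to 2.14) in untreated, a ratio of -0.68 (-0.98 to -0.38). With the mean taken left of the deepest boundary the ratios were -0.25 (-0.56 to 0.05) for the Nectin3 part and -0.31 (-0.61 to -0.01) for the Cd96 part. The Nectin3 part exceeded the Cd96 part by 0.34 (0.01 to 0.66) on the log2 scale in auxin and by 0.19 (-0.09 to 0.48) in untreated, or by 0.33 (0.16 to 0.50) in auxin and 0.37 (0.22 to 0.52) in untreated without sparse bins. With the desert it stood at -0.37 (-0.43 to -0.31) in auxin and -0.40 (-0.49 to -0.31) in untreated. With Morc1 the Nectin3 part was at 1.38 (1.24 to 1.53) in auxin and 1.73 (1.56 to 1.91) in untreated, and the Cd96 part at 1.22 (1.07 to 1.40) in auxin and 1.41 (1.29 to 1.54) in untreated. Over the whole second side the ratio of auxin over untreated was -0.32 (-0.40 to -0.24) for the Nectin3 part and -0.35 (-0.40 to -0.30) for the Cd96 part, a difference of 0.04 (-0.06 to 0.13). Without sparse bins it was -0.24 (-0.29 to -0.20) for the Nectin3 part and -0.35 (-0.39 to -0.31) for the Cd96 part, a difference of 0.11 (0.05 to 0.17), so whether the parts differed rests on the sparse bins.

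**Figure D4:**
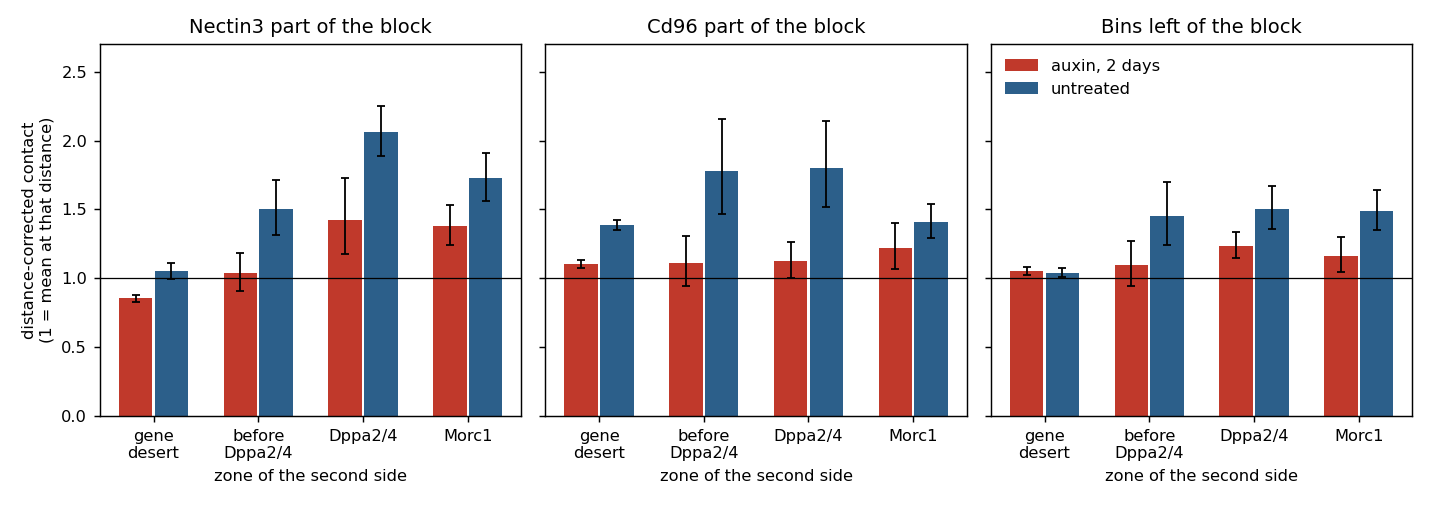
Distance-corrected contact (vertical axis, 1 is the mean at that distance) of the Nectin3 part of the block, the Cd96 part and the bins left of the block with each zone of the second side, in the auxin matrix (red) and the untreated matrix (blue); bars are levels and lines 95% counting intervals. The Nectin3 part runs from 0.855 with the desert to 1.43 with Dppa2/4 in auxin and from 1.05 to 2.06 in untreated.

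In pieces of 100 kb the contrast was sharpest for the piece at 46.47 to 46.57 Mb, which holds the Nectin3 promoter. With the desert it was at 0.805 in auxin and 0.975 in untreated, and with the Dppa2 and Dppa4 domain at 1.49 in auxin and 2.57 in untreated, from 409 read pairs in auxin and 634 in untreated. That log2 ratio was -0.78 (-1.03 to -0.53). The pieces between Gm4737 and Nectin3 had the desert above the Dppa2 and Dppa4 domain in auxin, but with intervals that overlap. In auxin the piece at 46.17 to 46.27 Mb was at 1.27 (1.21 to 1.33) with the desert and 1.17 (0.8997 to 1.52) with that domain. In untreated it was at 1.54 with the desert and 1.79 with that domain. In auxin the piece at 46.27 to 46.37 Mb was at 1.19 (1.13 to 1.26) with the desert and 0.960 (0.809 to 1.14) with that domain. In untreated it was at 1.52 (1.45 to 1.59) with the desert and 1.37 (1.14 to 1.64) with that domain. No interval was computed for the difference between zones in single pieces, and overlap of intervals does not decide it. Whether the order of zones was reversed in these pieces is therefore not settled. Over all 140 squares of a piece with a window, sparse bins left out, 131 were lower in auxin and 9 higher. Among 1027 squares of the interval over the same distances these shares were 45.9% and 54.1%. The interval lay below 0 in 69 squares (14.6% of the 1027) and above 0 in 0 (19.2%).

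**Figure D5:**
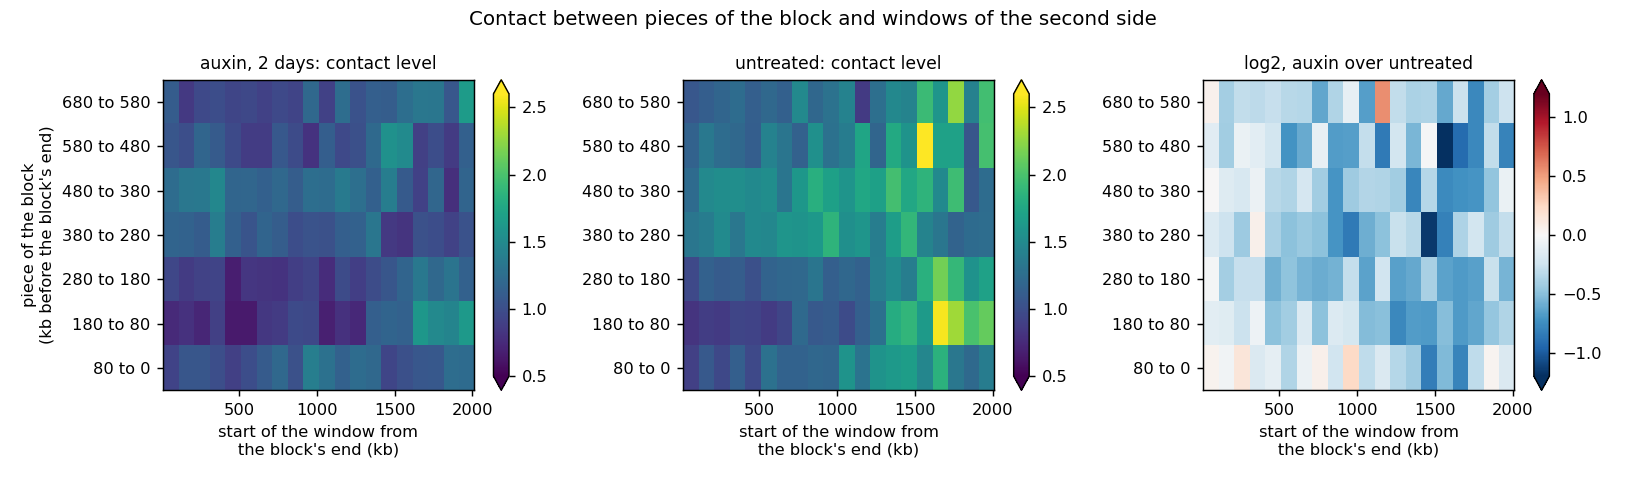
Contact between pieces of the block (rows, by distance before the block's end) and 100 kb windows of the second side (columns, by distance from the block's end, kb), as levels in the auxin matrix (left) and the untreated matrix (middle) and as log2 of auxin over untreated (right), sparse bins left out. The row of the Nectin3 promoter (180 to 80 kb) lies below 1 over the first windows and reaches 2.58 near Dppa2/4 in untreated and 1.64 at the far end in auxin; 131 of the 140 squares of the right panel are below 0.

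Among genes of the block, Plcxd2, which encodes a protein with a phospholipase C domain, was at 1.07 (0.984 to 1.16) in auxin and 1.25 (1.17 to 1.34) in untreated with the whole second side. Cd96 was at 1.04 (0.980 to 1.11) in auxin and 1.43 (1.30 to 1.57) in untreated. Gm4737, a single bin, was at 1.01 (0.840 to 1.2) in auxin and 1.37 (1.21 to 1.56) in untreated. Nectin3 was at 0.864 (0.824 to 0.905) in auxin and 1.13 (1.09 to 1.18) in untreated. The log2 ratios were -0.23 (-0.38 to -0.07) for Plcxd2, -0.46 (-0.62 to -0.30) for Cd96, -0.45 (-0.77 to -0.13) for Gm4737 and -0.39 (-0.48 to -0.30) for Nectin3. All 4 gene bodies were lower in auxin, with intervals that overlap between the genes. With the mean taken left of the deepest boundary the ratios stayed below 0, but the intervals of Plcxd2 (-0.18 to 0.12) and Gm4737 (-0.60 to 0.03) included 0.

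Among genes of the second side, Gm52257 was at 1.01 (0.794 to 1.28) in auxin and 1.98 (1.62 to 2.43) in untreated with the block, from 78 read pairs in auxin and 125 in untreated. Dppa4 was at 1.16 (1.00 to 1.34) in auxin and 1.58 (1.39 to 1.79) in untreated, and Dppa2, 1 bin, at 1.34 (1.06 to 1.70) in auxin and 2.17 (1.77 to 2.64) in untreated. Morc1 was at 1.26 (1.14 to 1.39) in auxin and 1.5 (1.41 to 1.61) in untreated. The log2 ratios were -0.97 (-1.43 to -0.52) for Gm52257, -0.45 (-0.73 to -0.17) for Dppa4, -0.69 (-1.13 to -0.24) for Dppa2 and -0.26 (-0.43 to -0.08) for Morc1. Taking the mean left of the deepest boundary gave -0.71 (-1.17 to -0.26) for Gm52257, -0.12 (-0.40 to 0.16) for Dppa4, -0.35 (-0.79 to 0.10) for Dppa2 and 0.10 (-0.08 to 0.27) for Morc1, so of these genes only Gm52257 kept an interval below 0.

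Of the 16 pairs of a gene of the block with a gene of the second side, 9 held at least 10 read pairs in each matrix, and all 9 were lower in auxin, against 50.0% of 206 such pairs of genes in the interval. The interval lay below 0 in 3 of these, against 10.7%, and in 5 without sparse bins, against 12.1%, when Cd96 with Morc1 at -0.47 (-0.82 to -0.13) and Nectin3 with Morc1 at -0.46 (-0.69 to -0.22) joined them. Nectin3 with Dppa2 held 23 read pairs in auxin and 56 in untreated, at 1.66 (1.09 to 2.54) in auxin and 3.62 (2.77 to 4.75) in untreated, a log2 ratio of -1.12 (-1.85 to -0.40). Nectin3 with Gm52257 held 13 read pairs in auxin and 34 in untreated, at 0.604 (0.348 to 1.05) in auxin and 2.04 (1.44 to 2.88) in untreated, a ratio of -1.75 (-2.69 to -0.81). Plcxd2 with Morc1 held 119 in auxin and 150 in untreated, a ratio of -0.65 (-1.09 to -0.20). Under the mean left of the deepest boundary these 3 ratios were -0.82 (-1.55 to -0.09), -1.56 (-2.50 to -0.62) and -0.39 (-0.83 to 0.06). Cd96 with Morc1 was then at -0.10 (-0.61 to 0.41). The rest of the 9 moved above 0, with intervals that include 0. Plcxd2 with Dppa4 was at 0.13 (-0.92 to 1.17), Cd96 with Dppa4 at 0.33 (-0.72 to 1.38) and Gm4737 with Morc1 at 0.26 (-1.07 to 1.59). Nectin3 was at 0.04 (-0.39 to 0.47) with Dppa4 and 0.10 (-0.23 to 0.43) with Morc1. Lower contact in all 9 thus rests on the mean as first defined. Nectin3 with Dppa4, next to Dppa2, was at 1.85 (1.48 to 2.31) in auxin and 2.23 (1.83 to 2.72) in untreated, with an interval of the ratio from -0.70 to 0.16. Cd96 with Dppa4 held 21 read pairs in auxin and 18 in untreated, and its ratio of -0.03 (-1.08 to 1.02) cannot be told from 0 at this depth. With the mean as first defined, 12 of the 13 pairs with reads in both matrices were lower in auxin, against 49.7% of 314 such pairs in the interval. The exception was Plcxd2 with Gm52257, with 6 read pairs in auxin and 5 in untreated. Gm4737 held 0 read pairs with Gm52257 and with Dppa2 in both matrices, and 0 in auxin and 2 in untreated with Dppa4. A count of 0 allows up to 3 read pairs, as a one-sided limit.

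The bin of the Nectin3 promoter, whose sequence is shown above, had higher contact with Dppa2 and Dppa4 than its part as a whole. With their domain it was at 2.49 (1.85 to 3.34) in auxin, from 52 read pairs, and at 4.19 (3.30 to 5.30) in untreated, from 82. With the Morc1 domain it was at 2.40 (1.71 to 3.37) in auxin and 3.61 (2.44 to 5.36) in untreated. With the desert it was at 0.833 (0.732 to 0.949) in auxin and 0.886 (0.784 to 1.00) in untreated, and with the domain in between at 0.858 (0.498 to 1.48) in auxin and 0.965 (0.563 to 1.66) in untreated. Its high contact thus lay with the domains of Dppa2, Dppa4 and Morc1 in both matrices, and not with the zones nearer to it. The bin of the Cd96 promoter held 100 read pairs with the whole second side in auxin and 120 in untreated, and its log2 ratio of -0.41 (-1.15 to 0.32), or -0.10 (-0.61 to 0.40) without sparse bins, cannot be told from 0 at this depth. On the second side, the promoter bin of Gm52257 was at 1.21 (0.871 to 1.67) in auxin and 1.91 (1.45 to 2.52) in untreated with the block. That of 6430553K19Rik was at 1.33 (1.02 to 1.72) in auxin and 2.01 (1.58 to 2.57) in untreated. That of Gm5485 was at 1.27 (1.02 to 1.58) in auxin and 1.41 (1.16 to 1.73) in untreated. Taking the mean left of the deepest boundary gave log2 ratios of -0.41 (-1.02 to 0.21) for Gm52257 and -0.31 (-0.83 to 0.20) for 6430553K19Rik. For Gm5485 the ratio was 0.20 (-0.23 to 0.62), and for the Nectin3 promoter bin with the Dppa2 and Dppa4 domain -0.45 (-0.99 to 0.10).

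The bins left of the block, chr16:45520001-45970000, are the stretch most alike, and they differed from it over the desert. With the desert they were at 1.05 (1.02 to 1.09) in auxin and 1.04 (1.01 to 1.08) in untreated, a log2 ratio of 0.02 (-0.05 to 0.08). Against them the block stood at -0.07 (-0.12 to -0.02) on the log2 scale in auxin and at 0.26 (0.20 to 0.32) in untreated, a difference of -0.33 (-0.41 to -0.25). With the Dppa2 and Dppa4 domain they were at 1.24 (1.15 to 1.33) in auxin and 1.5 (1.36 to 1.67) in untreated, a ratio of -0.28 (-0.47 to -0.10), and the difference between block and neighbour was -0.34 (-0.62 to -0.05). With the Morc1 domain they were at 1.16 (1.05 to 1.30) in auxin and 1.49 (1.35 to 1.64) in untreated, a ratio of -0.35 (-0.56 to -0.14), and the difference was 0.10 (-0.17 to 0.37). With the mean taken left of the deepest boundary the bins left of the block were at 0.24 (0.17 to 0.30) with the desert, 0.05 (-0.14 to 0.23) with the Dppa2 and Dppa4 domain and -0.01 (-0.22 to 0.20) with Morc1, so their lower contact with these genes rests on the mean as first defined. The difference between block and neighbour stayed below 0 over the desert and over the Dppa2 and Dppa4 domain without sparse bins, with that mean and with no distance correction. Over the desert the neighbour's windows went both ways. The windows at 46.66 to 46.76 Mb with 0.20 (0.08 to 0.32) and 46.96 to 47.06 Mb with 0.35 (0.08 to 0.61) were higher in auxin. Those at 47.66 to 47.76 Mb with -0.30 (-0.55 to -0.04) and 47.96 to 48.06 Mb with -0.53 (-0.90 to -0.17) were lower. With the mean taken left of the deepest boundary these lower windows were at 0.04 (-0.21 to 0.30) and -0.15 (-0.51 to 0.22). The higher windows were then at 0.32 (0.20 to 0.43) and 0.53 (0.26 to 0.79). Lower contact with the far desert left of the block therefore rests on the mean as first defined.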

How the data were processed

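The labels' protocols, which name MboI and capture, describe the labelled libraries. Whether these protocols hold for the matrices is not given in the sources. Per the deposited names, the authors pooled replicates, binned read pairs at 10 kb and balanced each matrix by iterative correction; the deposited values are a contact signal without a unit. The submitters' processing notes name the build mm10 and the tool Trim Galore. Which aligner, read filters and balancing tool were applied is not given in the sources. Each bin's stated position was taken as its start.

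Read pairs and bin factors were recovered from the values, and 100% of nonzero values came within 0.02 of a whole number in both matrices. The expected contact of a bin pair was the matrix's own mean over all bin pairs equally far apart. Intervals (95%) came from the Poisson variance of the weighted read pairs on the log scale. Boundaries were minima of contact in a 100 kb square, at least 0.2 (log2) below the lower flanking maximum within 250 kb. A window was called higher or lower past 1.2-fold. The recovery of read pairs and the ratios were tried on simulated data. There the expected contact was taken outside the described bin pairs, unlike in the main results. Python 3.11.15, numpy 2.4.6, pandas 2.3.3 and scipy 1.17.1 were used.

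The members, zones and lists were chosen with earlier results of these data known. The text names each protein-coding gene placed in the block or on the second side, each zone, the 3 windows of highest contact per matrix, and those with the 3 largest and 3 smallest ratios; single bins of promoters, 100 kb pieces, windows of the bins left of the block and pairs of genes beyond these were named after their values were seen. Gene positions came from RefSeq (GRCm38.p6). With 1 pooled matrix per condition no test was made. Alternatives changed the expected contact, the balancing, sparse bins, the least distance, the edges of the block, the zones, the windows and the fold.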

Additional observations from a re-analysis of the deposited data

How the results depend on the processing

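No paired analysis was possible because each condition had 1 pooled matrix. Expected contact taken only left of the deepest boundary gave log2 ratios of -0.22 for the whole second side, -0.22 for the desert, -0.34 for the domain before Dppa2 and Dppa4, -0.29 for their domain and 0.10 for Morc1, and 7 windows lower in auxin. With it the difference between block and left neighbour was -0.41 for the whole second side and -0.46 for the desert, that between the Dppa2 and Dppa4 domain and the desert -0.065, and that between Morc1 and the desert 0.32. Taken outside the described pairs, it gave -0.41 for the whole second side and -0.38 for the desert. Without distance correction the whole second side was at -0.28 and the Morc1 domain at -0.074, and the difference between block and neighbour was -0.37. At 1.5-fold, 4 windows were lower in auxin. The Nectin3 part with the desert was at -0.20 without sparse bins. The cause of these changes was not tested. Of 167 alternative values, 150 stayed within the main interval or within 1.5 times the main count. Of the 54 zone ratios, which include the whole second side, 53 were below 0. A least distance of 200 or 300 kb removed no bin pair from the domain before Dppa2 and Dppa4, their domain or the Morc1 domain. Those repeats could not differ from the main values. They are included in these counts and add no information. Counts in windows of 200 kb were scaled to 20 windows. The repeats for the bins left of the block, for all differences between zones, parts and neighbours and for the intervals of gene pairs were chosen after seeing the data. Spread between cultures is not covered, and single gene pairs rest on few read pairs.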
